A study of Mus musculus with 6 samples.

Results

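RNA-seq of mouse quadriceps muscle was used to follow 10 chemokine genes: Ccl2, Ccl5, Ccl6, Ccl7, Ccl8, Ccl9, Ccl11, Cxcl1, Cxcl12 and Cxcl14. They were taken by gene symbol from the count tables, and all 10 were found among the 27179 genes listed. The series held 6 libraries, 3 from miDrp1KO mice (libraries A, E and F) and 3 from control mice (libraries B, C and D), each from a different animal by its label. Its comparison asks what loss of Drp1, the GTPase that divides mitochondria, does to adult skeletal muscle, and for the chemokines whether an inflammatory signal is seen early after the loss.

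The miDrp1KO mice carried floxed alleles of Dnm1l, the gene encoding Drp1, together with the HSA-MerCreMer transgene, in which a Cre recombinase that works only after tamoxifen is driven by the human skeletal actin promoter. Deletion is therefore limited to skeletal muscle fibres, and the other cells of the tissue keep the gene. The controls are labelled Control f/f, while the study's methods describe controls with 1 or both alleles floxed, and whether they carried the Cre transgene is not given in the sources used here. Per those methods both groups received tamoxifen at 3 months of age, were on a C57BL/6J background and were killed after a short fast, and RNA was sequenced 3 weeks after deletion. Per the labels all the mice ate a normal chow diet. The tissue was whole quadriceps, so fewer cells of a type and less RNA per cell cannot be told apart.

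Chemokines are small secreted proteins that bind G protein-coupled receptors on other cells and draw those cells along a gradient. The CC ligands Ccl2 and Ccl7 act through Ccr2 and call monocytes from blood, Ccl11 acts through Ccr3 and calls eosinophils, Ccl5 binds Ccr1 and Ccr3 among other receptors, and Ccl6 and Ccl9 are ligands of Ccr1 made mainly by myeloid cells. Among the CXC ligands, Cxcl1 acts through Cxcr2 and calls neutrophils, Cxcl12 holds Cxcr4-bearing cells in tissues, and Cxcl14 is made constitutively by many tissues. In injured skeletal muscle, Ccl2 and Ccr2 are known for bringing in the monocytes that become muscle macrophages.

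Depth ranged from 13989588 counts (control C) to 62042255 (control D), and ribosomal RNA took 1.48% (miDrp1KO E) to 24.4% (miDrp1KO F) of the counts. Dnm1l, which checks the labels, was at 156 CPM (counts scaled to a common library size with TMM factors) in control B, 114 in control C and 140 in control D, and at 70.6, 81.3 and 66.2 CPM in miDrp1KO A, E and F. Its groups did not overlap (log2 fold change of -0.91, SE 0.18), and the quasi-likelihood test of edgeR, adjusted by Benjamini-Hochberg over 16483 tested genes, gave an adjusted p of 0.362. DESeq2, the tool of the study, gave Dnm1l an adjusted p of 0.00333. In the edgeR fit 2 genes (0.0121% of those tested) had an adjusted p under 0.05. The median log2 fold change of the tested genes was 0.02, and that of the 4625 with a mean under 2 CPM was 0.29, against which the low chemokines are to be read.

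Of the genes, 7 are neighbours on chromosome 11 (coordinates in GRCm38 from RefSeq). Ccl2 (chr11:82035577-82037452), Ccl7 (chr11:82045712-82047525), Ccl11 (chr11:82057832-82062955) and Ccl8 (chr11:82115185-82116799) lie in this order on the plus strand. Ccl5 (chr11:83525778-83530518), Ccl9 (chr11:83572917-83578636) and Ccl6 (chr11:83587886-83593087) lie further along on the minus strand. Cxcl1 is at chr5:90891245-90893121 and Cxcl12 at chr6:117168535-117181368, both on the plus strand, and Cxcl14 is at chr13:56288643-56296811 on the minus strand. No exon base of any of the 10 genes was shared with another annotated gene (GENCODE annotation of GRCm38).

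The 150 bases before the transcription start are shown for 4 members, because Cxcl1 and Ccl8 hold a motif match there and Ccl6 and Ccl9, whose profiles across the libraries were the closest of all pairs, share a stretch of sequence. They come from the RefSeq promoter table for GRCm38.p6, which held 6 of the 10 members, with no entry for Ccl2, Ccl5, Ccl7 and Ccl11. Each is written 5′ to 3′ on the strand of its gene. Capitals mark the NF-kappaB consensus in Cxcl1, where matches on both strands overlap, the TATAAA box in Ccl8, and the shared run in Ccl6 and Ccl9.
Cxcl1 (chr5:90891095-90891244, plus strand): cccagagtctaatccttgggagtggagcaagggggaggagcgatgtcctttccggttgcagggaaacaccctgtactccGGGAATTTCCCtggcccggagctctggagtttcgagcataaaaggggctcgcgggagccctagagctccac
Ccl8 (chr11:82115035-82115184, plus strand): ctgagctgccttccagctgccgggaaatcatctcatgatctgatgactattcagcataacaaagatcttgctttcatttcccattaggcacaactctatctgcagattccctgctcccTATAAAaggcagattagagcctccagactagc
Ccl6 (chr11:83593088-83593237, minus strand): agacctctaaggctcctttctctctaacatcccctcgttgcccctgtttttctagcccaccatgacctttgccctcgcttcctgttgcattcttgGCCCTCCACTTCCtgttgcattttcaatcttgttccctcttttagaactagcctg
Ccl9 (chr11:83578637-83578786, minus strand): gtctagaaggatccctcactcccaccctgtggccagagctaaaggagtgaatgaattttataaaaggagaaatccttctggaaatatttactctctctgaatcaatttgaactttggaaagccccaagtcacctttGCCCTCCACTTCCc

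Both strands of these windows were searched for 3 motifs: TATAAA, the NF-kappaB consensus, and GGAAGT, the core of sites bound by ETS factors such as the myeloid factor PU.1. Counting the start site's first base as +1, the NF-kappaB match of Cxcl1 lay at bases -71 to -62 and the TATAAA of Ccl8 at -32 to -27. Ccl9 held TATAAA at -92 to -87 and, on the opposite strand, at -94 to -89, with an NF-kappaB match at -35 to -26 on the opposite strand and GGAAGT at -7 to -2 on the opposite strand, and Ccl6 held GGAAGT at -48 to -43, also on the opposite strand. The 13 bases common to Ccl6 and Ccl9, GCCCTCCACTTCC, began at -55 in Ccl6 and at -14 in Ccl9 and contain the GGAAGT match of each. In the windows of Cxcl12 and Cxcl14 no letters matched these motifs. The window of Cxcl14 (chr13:56296552-56296701) precedes a start site that lies inside the gene span given above. The bases before the outer end of that span were not searched. Of 32851 promoters in the table, 7.57% held TATAAA, 4.6% the NF-kappaB consensus and 13.6% GGAAGT in a window of this length. A match is a description of the sequence and not evidence that a factor was bound in these muscles.

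Quadriceps expressed these chemokines at very different levels. Per kilobase of exon, Ccl11 was the most abundant (40.2 ± 4.82 CPM per kb, SD over 6 libraries, range 32.6 to 44.9) and Cxcl14 came next (19.7 ± 6.47, range 12.2 to 28.6). These ranges did not overlap, and together both genes made up 76.6% of the summed level of the 10. Ccl6 (5.98 ± 2.72 CPM per kb), Cxcl12 (4.69 ± 1.16) and Ccl9 (4.49 ± 1.41) formed a middle tier in which each range overlapped that of its neighbours in the order. At the low end stood Ccl8 (1.22 ± 1.04), Ccl2 (0.782 ± 0.583), Ccl7 (0.629 ± 0.231), Cxcl1 (0.321 ± 0.171) and Ccl5 (0.145 ± 0.105), again with overlapping ranges from each to the next. The mean level of Ccl11 was 276-fold that of Ccl5. The lengths were unions of all annotated exons, from 511 bases for Ccl8 to 8176 for Cxcl12, so transcripts shorter than the union are placed too low. The order of the group means was not the same in each genotype. Ccl7 was above Ccl2 in control muscle (means of 0.509 and 0.325 CPM per kb) and below it in miDrp1KO (0.749 and 1.24), and Cxcl12 was above Ccl6 in controls (5.28 and 4.69) and below it in miDrp1KO (4.10 and 7.28). Likewise Ccl8 was above Ccl2 in controls (1.43 and 0.325) and below it in miDrp1KO (1.01 and 1.24). Cxcl12 also changed places with Ccl9 (5.28 and 3.78 in controls, 4.10 and 5.21 in miDrp1KO).

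**Figure D1:**
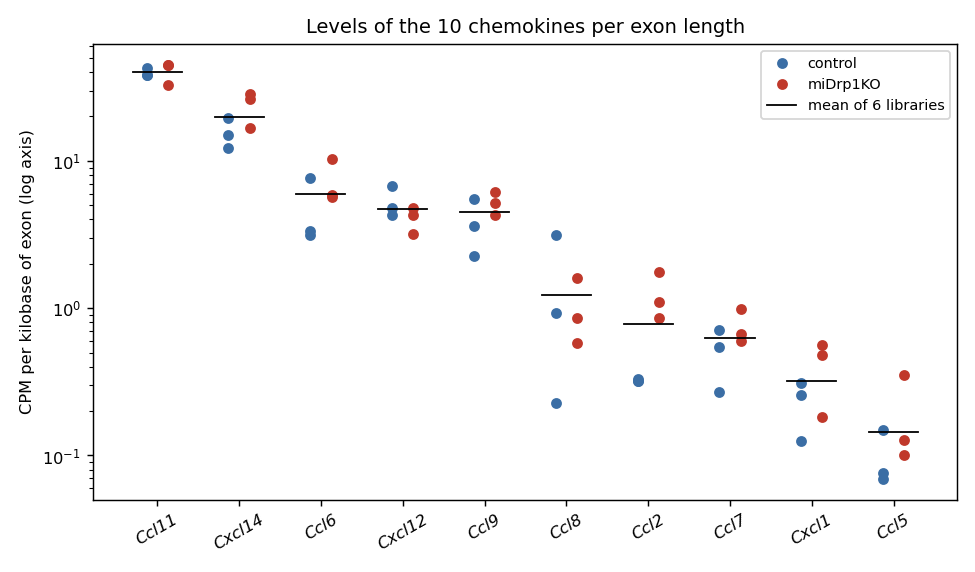
Level of each chemokine in CPM per kilobase of exon on a log axis, 1 point per library, with controls in blue, miDrp1KO in red and a line at the mean of the 6 libraries. Ccl11 and Cxcl14 stand above the rest, and the control and miDrp1KO points of Ccl2 are apart.

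Ccl2, the main monocyte attractant of the set, had the largest fold difference between the genotypes among the 9 tested members. Its raw counts were 8, 5 and 22 in controls B, C and D and 20, 82 and 26 in miDrp1KO A, E and F. Scaled to depth these are 0.379, 0.364 and 0.366 CPM in the controls and 0.972, 2.01 and 1.25 CPM in the miDrp1KO libraries. Every miDrp1KO library was above every control, and library E was the highest. The group means were 0.370 ± 0.00779 CPM (SD, n = 3) and 1.41 ± 0.538 CPM (SD, n = 3), a ratio of 3.81.

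In the fit over all genes the log2 fold change of Ccl2 was 1.94 (SE 0.45, 95% interval 0.95 to 2.93). Its unadjusted p of 0.00124 put it at rank 43 of the 16483 tested genes in edgeR's quasi-likelihood test, and the adjusted p after Benjamini-Hochberg was 0.362. Ccl2 therefore did not pass the test over all genes. The two-sided exact permutation test of its CPM gave p = 0.1, the smallest that 3 against 3 libraries can give. Its log2 fold change lay at percentile 99.7 of all tested genes. The rank and the percentile are among genes that passed the filter, which Ccl2 did only through the miDrp1KO libraries. Low genes were also shifted and more widely spread. The median log2 fold change was 0.29 (interquartile range 0.68) for genes with a mean under 2 CPM, against 0.02 (0.49) for all tested genes.

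The counts of Ccl2 behind these values were small. The exact Poisson 95% interval for control B reached from 0.164 to 0.746 CPM and that for miDrp1KO A from 0.594 to 1.50 CPM, so these libraries overlapped within counting error. Counting error alone comes to 21.3% to 44.7% of the value in single control libraries, which is wider than the spread seen between those controls. Over the summed libraries, 35 of 101202117 control counts and 128 of 73206904 miDrp1KO counts were from Ccl2, a ratio of 5.06 on raw totals (exact interval 3.46 to 7.57, covering counting error only). Library E supplied 82 of those 128 counts, and without it the ratio was 2.997 (exact interval 1.89 to 4.79). Ccl2 reached the minimum count for testing in 0 control and 3 miDrp1KO libraries, so it entered the test only through the group in which it was high. Without miDrp1KO E the log2 fold change was 1.57, and leaving out any other library gave values up to 2.17.

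Ccl7, the neighbour of Ccl2 on the chromosome and its partner at Ccr2, had raw counts of 12, 6 and 13 in controls B, C and D and 11, 32 and 10 in miDrp1KO A, E and F. In CPM these are 0.568, 0.437 and 0.217 in the controls and 0.535, 0.784 and 0.480 in the miDrp1KO libraries. The groups overlapped, with library E the highest, as for Ccl2. Its log2 fold change of 0.67 had a 95% interval of -0.57 to 1.91 (exact permutation p = 0.3 on the CPM), so no difference was detected, and one of up to 1.91 lay within the interval. With 1 library left out the value ran from 0.28 (without control D) to 1.05 (without control B).

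Ccl8, a further monocyte attractant, was counted 10, 22 and 7 times in controls B, C and D and 9, 12 and 17 times in miDrp1KO A, E and F. Its CPM were 0.473, 1.60 and 0.117 in the controls and 0.437, 0.294 and 0.816 in the miDrp1KO libraries. Control C was the highest and control D the lowest of all 6, so the controls enclosed every miDrp1KO library. In the fit the difference was -0.35 on the log2 scale (95% interval -2.29 to 1.59) and became 0.91 without control C. With limma voom on all 6 libraries it was 0.71, so the direction of Ccl8 depended both on that library and on the method.

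Ccl11, also called eotaxin, gave raw counts of 869, 637 and 2470 in controls B, C and D and 991, 1984 and 734 in miDrp1KO A, E and F. Once scaled to depth these were much closer together, with CPM of 41.1, 46.4 and 41.1 in the controls and 48.2, 48.6 and 35.2 in the miDrp1KO libraries. The groups overlapped, with F the lowest and E the highest. For Ccl11 the log2 fold change of 0.04 had a 95% interval of -0.34 to 0.41 (exact permutation p = 0.8 on the CPM). The most abundant member thus had the narrowest interval of the 9, and it included 0. The upper bound of 0.41 lay below the lower bound of 0.95 for Ccl2, and the difference between the genes was not itself tested.

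Ccl5, a T cell and monocyte attractant, was near the limit of detection, with raw counts of 3, 1 and 4 in controls B, C and D and 2, 5 and 7 in miDrp1KO A, E and F. Its CPM ran from 0.0666 to 0.142 in the controls and from 0.0972 to 0.336 in the miDrp1KO libraries, and the groups overlapped. It was the member that failed the filter on low counts and was not tested in the fit over all genes. Summed over libraries, 8 control and 14 miDrp1KO counts gave a ratio of 2.42 on raw totals, with an exact interval of 0.947 to 6.66 for counting error, so no difference was detectable at this depth.

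**Figure D2:**
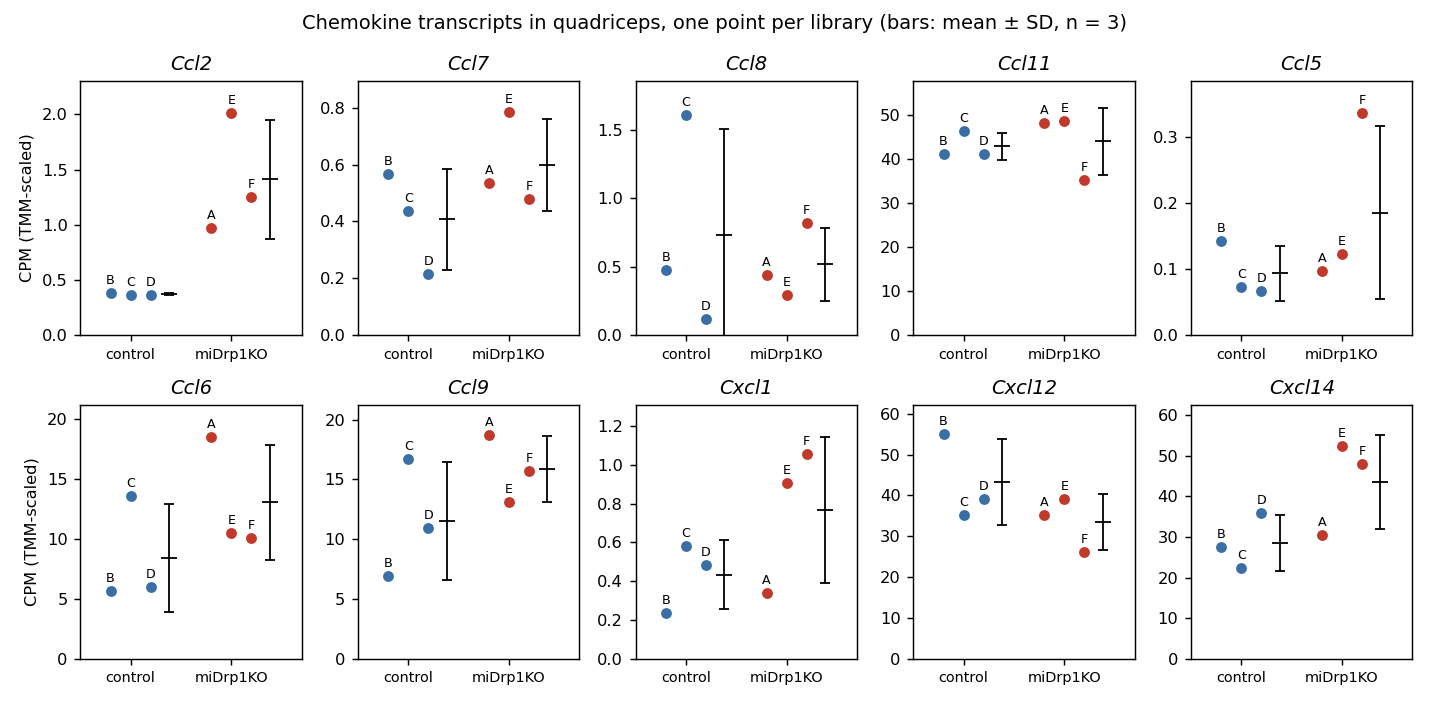
CPM (scaled by TMM, linear axes from 0) of each chemokine in every library, labelled by its letter, with controls in blue, miDrp1KO in red and bars for the mean ± SD (n = 3; the lower bar of Ccl8 is cut at 0). Ccl2 is the panel in which the groups do not overlap, with 0.364 to 0.379 CPM in the controls and 0.972 to 2.01 CPM in miDrp1KO.

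Ccl6 and Ccl9, the myeloid ligands of Ccr1, were well counted. Ccl6 had raw counts of 119, 187 and 359 in controls B, C and D and 382, 428 and 211 in miDrp1KO A, E and F, or 5.63, 13.6 and 5.98 CPM against 18.6, 10.5 and 10.1 CPM. Ccl9 had raw counts of 146, 229 and 656 in the controls and 385, 536 and 328 in the miDrp1KO libraries, or 6.91, 16.7 and 10.9 CPM against 18.7, 13.1 and 15.7 CPM. In both genes A was the highest library, B the lowest, and control C stood above 2 of the 3 miDrp1KO libraries.

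In log2 fold change, the difference was 0.66 for Ccl6 (95% interval -0.30 to 1.61) and 0.47 for Ccl9 (-0.18 to 1.12), and neither passed the test (adjusted p of 0.591 and 0.580 by edgeR with Benjamini-Hochberg). Single libraries moved these values in both directions. Without control C the log2 fold changes were 1.15 for Ccl6 and 0.80 for Ccl9, with unadjusted p of 0.00188 and 0.00764 and adjusted p of 0.365 and 0.374 by edgeR. The lowest log2 fold changes were 0.35 for Ccl6 (without miDrp1KO A) and 0.23 for Ccl9 (without control B), and the adjusted p reached 0.915 and 0.899 over the alternatives tried. Control C was also the library with the highest summed macrophage and monocyte markers, given with the other marker lists after the chemokines.

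The profiles of Ccl6 and Ccl9 were the closest of the 36 pairs among the 9 tested members. After each gene's mean log2 CPM was subtracted, they differed by a root mean square of 0.27 over the 6 libraries. The next pairs were Ccl11 with Cxcl12 (0.31) and Ccl7 with Ccl11 (0.45), and the farthest was Ccl2 with Ccl8 (1.39). Ccl2 and Ccl7, which are next to each other on the chromosome, differed by 0.69. These distances are descriptions over the same 6 libraries, which differ in depth, and low counts add to them.

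Cxcl14, the second most abundant member, had raw counts of 581, 306 and 2154 in controls B, C and D and 627, 2135 and 999 in miDrp1KO A, E and F. The CPM were 27.5, 22.3 and 35.9 in the controls and 30.5, 52.3 and 47.9 in the miDrp1KO libraries. Libraries E and F were above all controls, and A lay within the control range. Its log2 fold change was 0.61 (SE 0.23, 95% interval 0.09 to 1.13), with an unadjusted p of 0.0263 and an adjusted p of 0.409 in edgeR's quasi-likelihood test. Leaving out control B, control C, miDrp1KO E or miDrp1KO F each took the unadjusted p above 0.05, to at most 0.124 without miDrp1KO E.

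Cxcl1, the neutrophil attractant, was counted 5, 8 and 29 times in controls B, C and D and 7, 37 and 22 times in miDrp1KO A, E and F. Its CPM were 0.237, 0.583 and 0.483 in the controls and 0.340, 0.907 and 1.06 in the miDrp1KO libraries. Here too E and F were above all controls while A was not. For Cxcl1 the log2 fold change of 0.84 had a 95% interval of -0.41 to 2.09 and did not pass the test (adjusted p of 0.613 by edgeR with Benjamini-Hochberg).

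Cxcl12, the retention signal read by Cxcr4 and Ackr3, had raw counts of 1164, 483 and 2355 in controls B, C and D and 725, 1601 and 543 in miDrp1KO A, E and F. Its CPM were 55.1, 35.2 and 39.2 in the controls and 35.2, 39.2 and 26.1 in the miDrp1KO libraries. Control B was the highest and F the lowest, while the other 4 libraries lay between 35.2 and 39.2 CPM. The log2 fold change was -0.36 (95% interval -0.83 to 0.10, adjusted p of 0.557 by edgeR with Benjamini-Hochberg), and with Ccl8 it was 1 of 2 members with a value below 0. With 1 library left out the value for Cxcl12 ran from -0.51 (without control C) to -0.13 (without control B), and with no scaling it was -0.08.

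**Figure D3:**
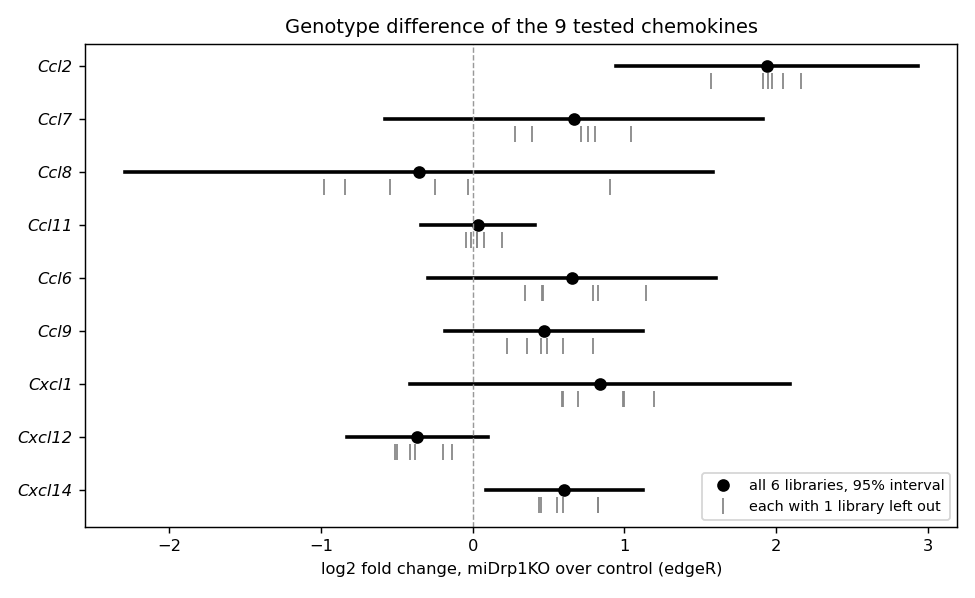
Log2 fold change (miDrp1KO over control) of the 9 tested chemokines, with the edgeR 95% interval as a bar and the values with 1 library left out as ticks. The intervals of Ccl2 (0.95 to 2.93) and Cxcl14 (0.09 to 1.13) exclude 0 before adjustment, and the tick of Ccl8 on the right is the fit without control C.

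Of the 9 tested members, 0 had an adjusted p under 0.05 in edgeR's fit, against a background of 0.0121% of tested genes. An unadjusted p under 0.05 was found for 2 of the 9 (Ccl2 and Cxcl14, both higher), where 10.9% of all tested genes reached it in either direction 4.68% doing so with a higher and 6.22% with a lower level. Leaving aside Ccl2, which was tested only through the miDrp1KO libraries, the count was 1 of 8. The groups did not overlap in 1 of the 10 (Ccl2), against 18.0% of tested genes in either direction (7.67% higher and 10.3% lower), so the count of members without overlap was no larger than the background share. A total of 7 of the 9 had a log2 fold change above 0, where 52.0% of tested genes did, and the median of the 9 was 0.61. That share is not matched for level. Ccl2, Ccl7, Ccl8 and Cxcl1 had means under 2 CPM, where the median of tested genes was 0.29 (quartiles -0.03 and 0.64). No excess of members above 0 can therefore be read from this count. DESeq2 gave 2 of the 10 an unadjusted p under 0.05, where 7.33% of the genes it fitted reached it, and an adjusted p for 5 of the 10, Ccl2 not among them, of which 0 were under 0.05.

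The summed level of the 10 genes was 134 to 138 CPM in the controls and 139 to 168 CPM in miDrp1KO, most of it from Ccl11, Cxcl12 and Cxcl14. The groups nearly met, at 138.1 CPM in control B and 139.0 CPM in miDrp1KO F. Each of Ccl11, Cxcl12 and Cxcl14 overlapped between the groups. The libraries did not share out the extremes evenly. Library E was the highest of the 6 for Ccl2, Ccl7, Ccl11 and Cxcl14, library A for Ccl6 and Ccl9, and library F for Ccl5 and Cxcl1. Each of these was the lowest for no member except F, which was lowest for Ccl11 and Cxcl12. For the low genes these positions lie within counting error, as for Cxcl1 in E and F. Library E also stood apart in its TMM factor, at 1.42 against 0.840 (control B) to 1.04 (miDrp1KO F) in the others. The fibroblast marker Col1a1 was at 222 CPM in E, 31.2 in A, 104 in F and 50.6 to 67.3 in the controls. Its log2 fold change was 1.02, and 0.21 without E.

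Among the tested genes whose profile over the 6 libraries was closest to that of Ccl2 were Mucl1 (root mean square difference of 0.26 in log2 CPM), Slamf7 (0.30), Tmem229a (0.33) and Fxyd2 (0.36), out of 13442 compared. For Ccl11, the member with the highest mean CPM, they were Thoc2, Arl8a and Gabpb2 (each 0.03) and Atp7a and Fmo5 (each 0.04), all of them genes with nearly flat profiles. Nothing about shared control can be read from these distances.

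The receptors of the members were measured in the same libraries. Ccr2, the receptor of Ccl2 and Ccl7 on monocytes, was at 5.59 CPM in control B, 10.5 in control C and 6.05 in control D, and at 10.8, 13.4 and 10.9 CPM in miDrp1KO A, E and F. All miDrp1KO libraries were above the controls, narrowly above control C (log2 fold change of 0.69, unadjusted p of 0.0170 and adjusted p of 0.392 in edgeR's quasi-likelihood test). Ackr2, a decoy receptor that removes CC chemokines, was at 3.30 ± 0.383 CPM (SD, n = 3) in controls and 4.91 ± 0.481 in miDrp1KO, without overlap (log2 fold change of 0.57).

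Cxcr4, the signalling receptor of Cxcl12, had 2.15 ± 0.235 CPM (SD, n = 3) in controls and 3.19 ± 0.539 in miDrp1KO, without overlap, and Ackr3, its scavenger, had 24.7 ± 4.58 and 32.7 ± 4.02 CPM with overlap. Their log2 fold changes were 0.58 and 0.41, opposite in sign to that of Cxcl12. Ccr1 (0.46) and Ackr1 (0.24) had log2 fold changes whose 95% intervals include 0, and each turned negative when 1 library was left out (miDrp1KO A for Ccr1, and miDrp1KO E or control D for Ackr1). Ccr3 and Cxcr2, the receptors of Ccl11 and Cxcl1, were under the count minimum, at means of 0.324 and 0.333 CPM in controls and 0.266 and 0.218 CPM in miDrp1KO. Over the list of 23 chemokine receptors, 15 were tested, of which 11 had a log2 fold change above 0 and 4 below (median 0.13). Among all tested genes 52.0% were above 0, and those with a mean under 2 CPM had a median of 0.29. In the list of receptors, counts at the p thresholds were as follows. Of the 15 tested receptors, 0 had an adjusted p and 3 an unadjusted p under 0.05 in edgeR's fit (10.9% of all tested genes), and DESeq2 gave 2 of the 23 an unadjusted p under 0.05 (7.33% of all genes it fitted).

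Of 31 other chemokine ligands, 14 were tested, with 9 log2 fold changes above 0 and 5 below (median 0.14). Here too the background was 52.0% of all tested genes above 0, with a median of 0.29 for those under 2 CPM. In edgeR's fit 0 had an adjusted p and 2 an unadjusted p under 0.05, and DESeq2 gave 3 of the 30 it fitted an unadjusted p under 0.05, against the same shares of 10.9% and 7.33% of all genes. Ccl25, a ligand known from thymus and gut, was lower in every miDrp1KO library (3.53 ± 0.509 against 2.22 ± 0.279 CPM, SD, n = 3, log2 fold change of -0.68). Cxcl17 was at very low levels (0.141 ± 0.124 against 0.452 ± 0.137 CPM) and, like Ccl2, reached the count minimum only in the miDrp1KO libraries. Cxcl16, a membrane-bound ligand, was above the controls in every miDrp1KO library, at 2.18 ± 0.122 against 2.70 ± 0.369 CPM. None of Ccl25, Cxcl17 and Cxcl16 passed the test over all genes (adjusted p of 0.393, 0.446 and 0.692 by edgeR with Benjamini-Hochberg). Among the ligands too low to be tested, named after their values were seen, the CPM did not overlap for 3, all higher in miDrp1KO. Of all tested genes 18.0% did not overlap (7.67% higher). The share among genes too low to be tested is not given here, so no excess can be read from this count. Raw counts in B, C and D against A, E and F were 4, 4 and 20 against 8, 27 and 46 for Cxcl10, 1, 0 and 1 against 4, 14 and 3 for Ccl4, and 0, 1 and 8 against 3, 6 and 4 for Ccl17.

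The cytokines, transcription factors and enzymes that induce or process chemokines formed a list of 30 genes, of which 23 were tested, with 16 log2 fold changes above 0 and 7 below (median 0.23). As given before, 52.0% of all tested genes were above 0, and the median of those under 2 CPM was 0.29. In edgeR's fit 0 had an adjusted p and 3 an unadjusted p under 0.05 (10.9% of all tested genes), and DESeq2 gave 2 of the 30 an unadjusted p under 0.05 (7.33% of all genes it fitted). Dpp4, the protease that trims Cxcl12 and several CC ligands, was at 17.7 ± 6.23 CPM (SD, n = 3) in controls and 30.5 ± 6.39 in miDrp1KO with overlap (log2 fold change of 0.79). Socs3, a feedback inhibitor of cytokine signalling, was at 2.50 ± 0.656 and 9.02 ± 8.19 CPM without overlap, with miDrp1KO A at 18.5, E at 4.17 and F at 4.42 CPM. Its log2 fold change was 1.84, and 0.80 without library A. Among the transcription factors, Rela (-0.37) and Relb (-0.46) had log2 fold changes below 0 and were lower in every miDrp1KO library. Their unadjusted p in edgeR's quasi-likelihood test was 0.0498 for Rela and 0.0931 for Relb. Tnfaip3, a brake on NF-kappaB, was at 0.21 and higher in every miDrp1KO library. Of the 23 tested genes of the list, 2 were higher and 3 lower without overlap, against 7.67% and 10.3% of all tested genes.

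**Figure D4:**
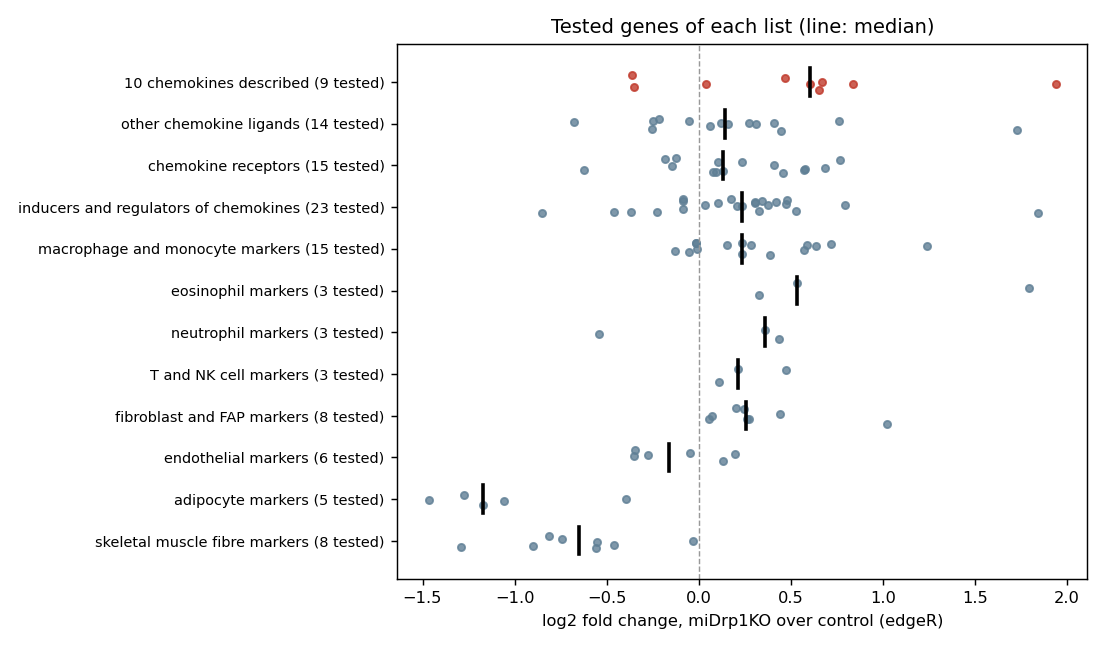
Log2 fold change (miDrp1KO over control) of every tested gene in each list, 1 point per gene with a line at the list's median, the chemokines described in red and the other lists in grey-blue. The chemokines have a median of 0.61, and the adipocyte and muscle fibre markers have medians of -1.17 and -0.65.

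Markers of cells that make or answer chemokines were summed in each library. The summed macrophage and monocyte markers (15 of 15 tested, 10 with a log2 fold change above 0, where 52.0% of all tested genes were) were 185 CPM in control B, 333 in control C and 191 in control D, and 310, 276 and 274 CPM in miDrp1KO A, E and F, with control C the highest of all. Adgre1, which encodes F4/80, had a log2 fold change of -0.05 and Cd68 one of 0.59. The 4 markers with an unadjusted p under 0.05, named here after their values were seen, were the complement genes C1qa (0.64), C1qb (1.24) and C1qc (0.72) and the lysozyme gene Lyz2 (0.57). In 2 of the 15 markers, C1qa and Cd68, every miDrp1KO library was above every control, as in 7.67% of all tested genes. None of the 15 passed the adjusted threshold in edgeR's fit. Summed eosinophil markers were low, at 1.02 to 1.56 CPM in controls and 1.97 to 2.60 in miDrp1KO (3 of 7 tested), and the gap rested on Ear2, since without it the sums overlapped (0.802 to 1.33 and 1.25 to 2.26 CPM). Ear2 itself reached the count minimum only in the miDrp1KO libraries. Summed T and NK cell markers ran from 2.04 to 2.70 CPM in controls and from 2.78 to 3.51 in miDrp1KO (3 of 8 tested), a gap smaller than the counting error of the lowest miDrp1KO library (58 counts, 13.1%), and each tested gene of the list overlapped between the groups. Neutrophil markers overlapped (1.65 to 4.45 and 2.33 to 4.61 CPM, 3 of 7 tested).

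Of the resident cells, fibroblast and progenitor markers overlapped between groups (1248 to 1780 CPM in controls and 1444 to 2122 in miDrp1KO), as did endothelial markers (155 to 278 and 162 to 252 CPM). Skeletal muscle fibre markers were abundant in every library of this muscle, but summed to 226990 to 283868 CPM in controls and to 98748 to 212838 CPM in miDrp1KO, and all 8 had a log2 fold change below 0. Adipocyte markers likewise ran from 301 to 421 CPM in controls and from 226 to 275 CPM in miDrp1KO. In these 8 marker lists edgeR's fit gave 0 genes an adjusted p under 0.05 and 8 an unadjusted p under 0.05. These were 4 of 15 tested macrophage, 1 of 3 eosinophil, 2 of 5 adipocyte and 1 of 8 muscle fibre markers. Among all tested genes 10.9% had an unadjusted p under 0.05. DESeq2 gave one to 4 of 15 macrophage, 1 of 7 eosinophil, 4 of 5 adipocyte and 5 of 8 muscle fibre markers. The share of all genes it fitted was 7.33%, and each of the other lists had 0. DESeq2, which called 1.18% of the genes it gave an adjusted p, called 3 markers, Adipoq, Plin1 and Myh4, all lower in miDrp1KO. The part of these cell types in the values of Ccl2, Ccl6, Ccl9 and Cxcl14 was not tested.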

How the data were processed

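Total RNA from quadriceps of 6 mice was made into stranded, ribosome-depleted libraries and sequenced in 2 pools. The authors checked reads with FastQC, aligned and counted them with Rsubread on GRCm38, and deposited raw counts per gene for each library. Their processing notes name DESeq2 1.30.0. The strand setting of the counting and the pool of each library are not given in the sources used here. All 10 members are named, with other genes by a rule (tested genes with an unadjusted p under 0.05 or groups without overlap, receptors of the members, the first 2 tested markers of each list, nearest profiles). A few genes that the rule names are not reported here. The members and lists were chosen with earlier results of these data known.

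The 6 count tables were joined by gene identifier, with groups from the genotype labels. Genes were tested with edgeR 4.0.16 in R 4.3.3 (filterByExpr with a minimum count of 10, TMM scaling, robust quasi-likelihood fit without covariates, Benjamini-Hochberg over 16483 genes, threshold 0.05). The fitting code was tested on simulated data. CPM were computed from the counts and TMM-scaled library sizes, and single genes were also compared by a two-sided exact permutation test. Counting intervals are exact Poisson 95% intervals, and since the libraries carry no molecular identifiers they cover counting error only. Profiles were compared as log2 CPM (prior count 2). A minimum mean of 1 CPM was set for the genes compared with Ccl2 and Ccl11, and not for the members themselves. Alternatives were DESeq2 1.42.0, limma 3.58.1 (voom), other scalings and filters, and leaving out each library.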

Additional observations from a re-analysis of the deposited data

How the results depend on the processing

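The log2 fold change of Ccl2 was above 0 with an unadjusted p under 0.05 in all 13 alternatives that gave it a value, from 1.57 (without miDrp1KO E) to 2.27 (no scaling beyond the library totals, an alternative chosen after seeing the data), and from 1.57 to 2.17 with 1 library left out. Its adjusted p ran from 0.0720 (no scaling) to 0.877 (without control D), DESeq2 gave it none, and with at least 10 counts required in every library Ccl2, Ccl7, Ccl8, Cxcl1 and Ccl5 were not tested. In every alternative 0 members had an adjusted p under 0.05. The number with an unadjusted p under 0.05 was 2, became 3 with limma voom (Ccl6 added; 12.8% of all genes), 1 of 5 tested (Cxcl14) with at least 10 counts in every library, where 11.4% of all tested genes reached it, and 4 with no scaling (Ccl6 and Ccl9 added; 9% of all genes), and ran from 1 to 4 with 1 library left out (5.36% to 17.5% of all genes). It was 1 without control B, miDrp1KO E or miDrp1KO F (Ccl2) and 4 without control C (Ccl2, Ccl6, Ccl9 and Cxcl12; 10.5% of all genes). The number of members without overlap was 1 and ran from 1 to 3 with 1 library left out, 3 without control B, control C or miDrp1KO A and 2 without control D or miDrp1KO F. Fewer libraries make overlap rarer by construction, and 23.5% to 38.1% of all tested genes did not overlap in these settings, against 18.0% with all 6 libraries. The cause of the other shifts was not tested.

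Of 544 alternative values for 40 single genes, 26 in 12 genes changed sign, 0 of them with an adjusted p under 0.05. With limma voom the log2 fold changes of Ccl8, Adgre1 and S100a8 were 0.71, 0.15 and 0.10. With upper quartile scaling, which moved the median of all genes to 0.11, those of Adgre1 and Cdh5 were 0.042 and 0.037. With no scaling, where that median was 0.26, those of Adgre1 and Cdh5 were 0.18 and 0.29. With 1 library left out the log2 fold changes ran from -0.98 to 0.91 for Ccl8, -0.042 to 0.20 for Ccl11, -0.27 to 1.28 for Ccr1, -0.13 to 0.75 for Ackr1, -0.29 to 0.38 for Adgre1, -0.33 to 0.77 for Il5ra, -0.95 to 0.83 for S100a8, -0.0032 to 1.78 for S100a9, -0.011 to 0.53 for Cd3e, -0.34 to 0.63 for Cd4, -0.047 to 0.23 for Pdgfra and -0.31 to 0.35 for Cdh5. Over all genes the number with an adjusted p under 0.05 was 2, and 82 with DESeq2, 8 with no filter, 45 with no scaling and 1 to 7 with 1 library left out (1 without miDrp1KO E or F, 7 without miDrp1KO A). No paired analysis was possible because the sources used here give no pairing of control with miDrp1KO libraries. Depth limits Ccl5, whose libraries held 1 to 7 counts each, and leaves Ccl2, Ccl7, Ccl8 and Cxcl1 with wide counting intervals.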
